A study of Mus musculus with 8 samples.

Results

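Complement components and receptors were followed in whole ear skin as 9 listed genes: C1qa, C1qb, C1qc, C1ra, C3, C4b, Cfb, C3ar1 and C5ar1. All 9 were found among the 41388 gene identifiers of the deposited tables by Ensembl identifier, and all 9 had enough counts to be tested. The samples came from adult wild-type mice of the C57Bl/6 strain. The MC903 group holds 4 mice whose ears received 1 nmol of MC903, the vitamin D analog calcipotriol, each day over 12 days, and the vehicle group holds 4 mice given ethanol. Topical MC903 is used in mice to produce an itchy skin inflammation that resembles atopic dermatitis. Each library was made from bulk tissue, so fewer or more cells of a type cannot be told apart from less or more RNA per cell.

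Complement is a cascade of plasma and tissue proteins that tags surfaces for phagocytes, releases small inflammatory peptides and can open pores in membranes. The C1q molecule, built from A, B and C chains, binds immune complexes and dying cells and starts the classical pathway through the proteases C1r and C1s. C1s cleaves C4 and C2. Factor B takes the place of C2 in the alternative pathway, and both routes cleave C3. The peptides C3a and C5a act through the receptors C3aR1 and C5aR1. Plasma complement comes mostly from the liver, whereas C1q is made largely by macrophages and dendritic cells, and several other components are also made locally by fibroblasts and epithelial cells.

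Library totals ran from 12310466 to 15575518 counts in the MC903 group and from 14223908 to 16837221 counts in the vehicle group. The vitamin D response gene Cyp24a1, a check on the treatment, averaged 3837 ± 403 CPM in MC903 skin and 18.8 ± 1.73 CPM in vehicle skin (SD, n = 4 each; CPM, counts scaled to the library total and TMM-adjusted). Vehicle replicate 2 stood apart: 7 salivary gland transcripts took 29.1% of its counts, against at most 0.0524% in any other library. Every member is therefore given with and without that library below. In the summed CPM of 6 keratinocyte markers, MC903 libraries held 12259 to 13556 and vehicle libraries 5699 to 6832, so the labelled skin was present in each. Liver transcripts were scarce, with 6 hepatocyte markers summing to 2.12 to 2.90 CPM in MC903 libraries and 3.89 to 35.4 CPM in vehicle libraries, the highest in vehicle replicate 2.

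MC903 skin held more transcript of all 3 C1q chains and of both anaphylatoxin receptors, while the transcripts of C1ra, C3, C4b and Cfb did not pass the test. In edgeR's quasi-likelihood test with Benjamini-Hochberg adjustment over all genes, 5 of the 9 were higher at an adjusted p below 0.05 and 4 were not called. None was lower, also not at an unadjusted p below 0.05, with DESeq2 or with limma-voom. Over all 16105 genes tested, 21.3% were called higher and 20.2% were called lower. In 6 of the 9, the 5 called and C3, all MC903 libraries lay above all vehicle libraries, and in none below, which over all genes tested held for 19.8% and 18.9%, or 38.7% in either direction. The median log2 fold change was 0.87 over the 9 genes and -0.034 over all genes tested. The 9 genes were listed with earlier results of these data known, so this contrast describes them and does not single them out.

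**Figure D1:**
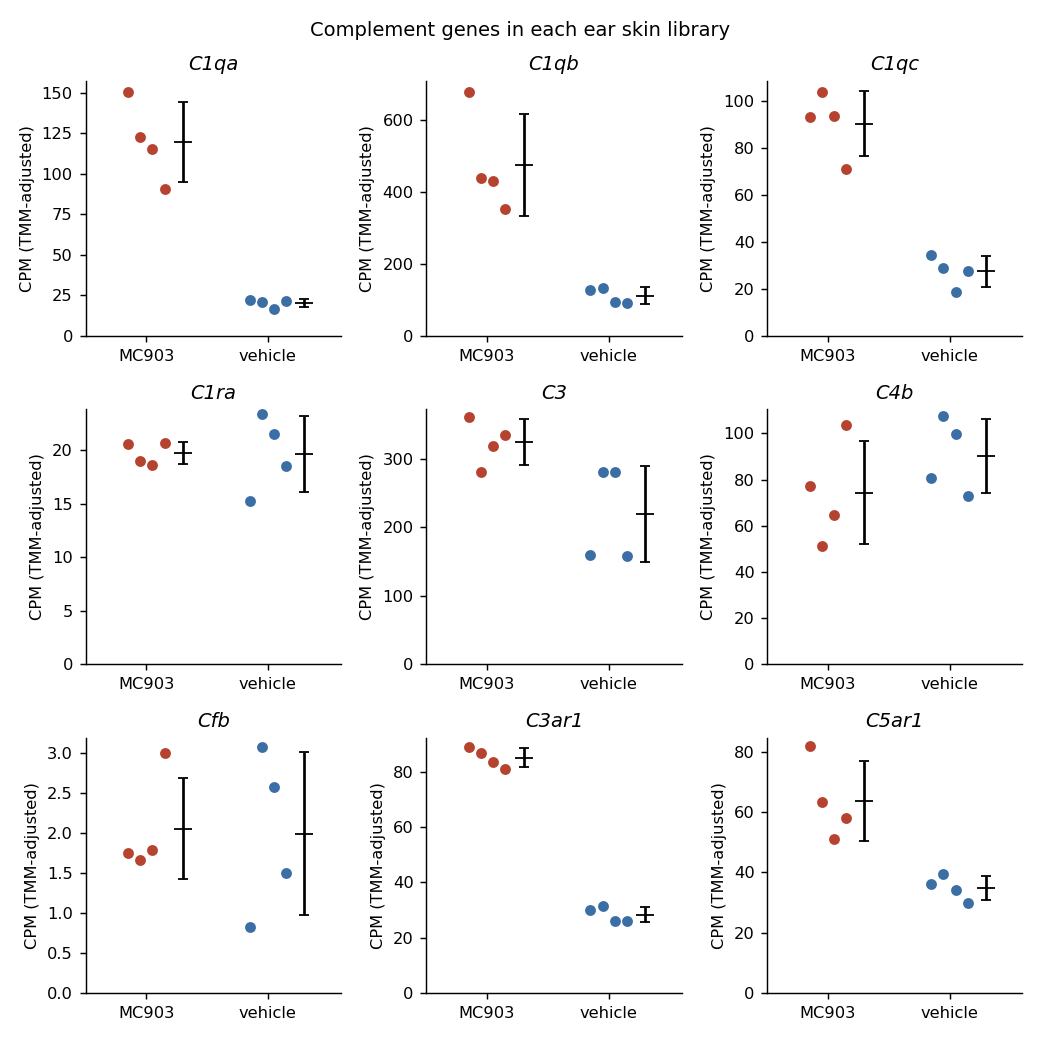
TMM-adjusted CPM of the 9 complement genes, 1 point per library, with MC903 on the left and vehicle on the right of each panel; the bar beside the points is the mean with 1 SD (n = 4 each). The points of C1qa, C1qb, C1qc and C3ar1 separate widely between the groups, and those of C5ar1 separate by a smaller gap. Those of C1ra, C4b and Cfb overlap, and those of C3 meet near 281 CPM.

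C1qa, C1qb and C1qc encode the chains of the C1q recognition molecule and lie side by side on the minus strand of chromosome 4. In mm10 C1qa (ENSMUSG00000036887) spans 136895917 to 136898803, C1qc (ENSMUSG00000036896) spans 136889804 to 136893065 and C1qb (ENSMUSG00000036905) spans 136880129 to 136886187, each with 3 exons. C1qa measured 150.5, 122.5, 115.4 and 90.7 CPM in the MC903 libraries, against 22.1, 20.8, 16.6 and 21.4 CPM in the vehicle libraries. All 4 MC903 values lay far above the vehicle values, which were close together. C1qa was 5.92-fold higher in MC903 skin (95% interval 4.57 to 7.66; log2 value 2.57 ± 0.17 SE, adjusted p = 1.53e-06).

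C1qb measured 680.2, 439.9, 431.0 and 352.6 CPM in the MC903 libraries, against 129.0, 134.6, 95.9 and 90.8 CPM in the vehicle libraries. MC903 replicate 1 was the highest and replicate 4 the lowest for C1qb, as for C1qa. C1qb had a log2 fold change of 2.08 ± 0.23 (adjusted p = 4.06e-05), or 4.23-fold (2.99 to 5.98). C1qc measured 93.2, 103.6, 93.7 and 70.9 CPM in MC903 libraries and 34.4, 29.0, 18.6 and 27.8 CPM in vehicle libraries, again without overlap. Its log2 fold change was the smallest of the 3 chains, 1.72 ± 0.19 (adjusted p = 4.04e-05), or 3.29-fold (2.47 to 4.38). Without vehicle replicate 2 the log2 fold changes of C1qa, C1qb and C1qc were 2.57, 2.17 and 1.74, and each was still called.

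The 3 chains join in equal parts in the C1q protein, and their transcripts were compared within each library as ratios per kilobase of gene length. The C1qc to C1qa ratio was 0.334, 0.455, 0.437 and 0.421 in the MC903 libraries, against 0.838, 0.751, 0.601 and 0.699 in the vehicle libraries. Every MC903 library had less C1qc per C1qa than any vehicle library, a log2 difference of -0.81 (two-sided exact permutation p = 0.0286, adjusted p = 0.0524 over 11 ratios). The C1qb to C1qa ratio had a geometric mean of 3.74 in MC903 skin and 5.26 in vehicle skin, with overlapping libraries and a log2 difference of -0.49 (exact permutation p = 0.0571, adjusted p = 0.0898). With 4 libraries against 4 the smallest p such a test can give is 0.0286, and 6 of the 11 ratios reached it. None of the 11 passed after adjustment, where the lowest value was 0.0524. With 6 of 11 at the smallest p, the adjustment could give no lower value, whatever the size of the differences.

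C3ar1 encodes the receptor for C3a, carried by myeloid cells. The gene (ENSMUSG00000040552) spans 122847138 to 122856161 on the minus strand of chromosome 6. It measured 89.0, 86.8, 83.5 and 81.1 CPM in the MC903 libraries, against 29.9, 31.3, 26.2 and 26.0 CPM in the vehicle libraries. The groups lay far apart, and the MC903 libraries were closer together than for any other of the 9 genes, with an SD of 4.13% of the mean. C3ar1 thus rose by 1.59 ± 0.11 on the log2 scale (adjusted p = 2.31e-06), or 3.0-fold (2.53 to 3.56).

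C5ar1 encodes the receptor for C5a, a chemoattractant for neutrophils and monocytes. The gene (ENSMUSG00000049130) spans 16246743 to 16259540 on the minus strand of chromosome 7. It measured 82.0, 63.2, 51.2 and 58.2 CPM in the MC903 libraries, against 36.3, 39.3, 34.2 and 29.9 CPM in the vehicle libraries, with no overlap. C5ar1 rose by 0.87 ± 0.16 on the log2 scale (adjusted p = 0.00121), or 1.82-fold (1.44 to 2.31). Without vehicle replicate 2 the log2 fold changes were 1.63 for C3ar1 and 0.92 for C5ar1, and both were still called. The C3ar1 to C5ar1 ratio per length was 0.648 to 0.973 in MC903 libraries and 0.457 to 0.520 in vehicle libraries, without overlap (log2 difference 0.74, exact permutation p = 0.0286, adjusted p = 0.0524).

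Most of the listed myeloid markers that had enough counts to be tested moved with these genes. Of 10 macrophage and monocyte markers, 9 were higher and Mertk, a receptor for the uptake of dying cells, was lower, and none was at 0. The share called higher over all genes tested was 21.3%. Their summed level was 1594 to 2016 CPM in MC903 libraries and 795 to 919 CPM in vehicle libraries. Of 7 neutrophil markers, 4 were tested and all 4 were higher, with sums of 395 to 1405 CPM in MC903 libraries and 33.1 to 113 CPM in vehicle libraries. The neutrophil-defining Ly6g, and Mpo and Camp, were below the filter. They had 6, 13 and 12 counts over the MC903 libraries and 0, 53 and 13 over the vehicle libraries. S100a8 and S100a9, at means of 552 and 421 CPM in MC903 skin, made up most of the neutrophil sum. The sum alone therefore does not give a level of neutrophils, and which cells made these transcripts was not tested. Cxcr2 and Csf3r averaged 54.6 and 14.2 CPM in MC903 skin, against 7.72 and 1.79 CPM in vehicle skin. The part of macrophages, monocytes and neutrophils in the complement differences was not tested. Each gene could, however, be set against Csf1r, the macrophage growth factor receptor, in the same library.

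C1qa per Csf1r was 4.84, 4.53, 4.51 and 4.00 in the MC903 libraries, against 1.55, 1.35, 1.22 and 1.59 in the vehicle libraries. The log2 difference of this ratio was 1.65 (exact permutation p = 0.0286, adjusted p = 0.0524), and every MC903 library held more C1qa per Csf1r than any vehicle library. C3ar1 per Csf1r had a geometric mean of 0.777 in MC903 skin and 0.481 in vehicle skin, also without overlap (log2 difference 0.69, exact permutation p = 0.0286, adjusted p = 0.0524). C5ar1 per Csf1r was 0.960 in MC903 skin and 0.991 in vehicle skin, with overlapping libraries (log2 difference -0.045, exact permutation p = 0.714, adjusted p = 0.714). Left out in turn, single libraries moved that last difference between -0.097 and 0.037. These ratios depend on the marker chosen, since Csf1r had the smallest increase of the 9 markers called higher (log2 fold change 0.90, against 2.45 for Fcgr1 and 2.87 for Ly6c2). Each of the 10 markers was therefore used in turn, an alternative chosen after seeing the data. C1qa per marker was higher in all MC903 libraries than in any vehicle library for 8 of the 10, and overlapped for Fcgr1 (log2 difference 0.021) and Ly6c2 (-0.58). C3ar1 per marker was higher without overlap for 5, lower for Ly6c2 (-1.54) and overlapping for 4, among them Mrc1 (-0.14), Ccr2 (0.037) and Fcgr1 (-0.94). C5ar1 per marker overlapped for 7, was higher per Mertk (1.55) and was lower per Fcgr1 (-1.68) and Ly6c2 (-2.27). Those without overlap each had an exact permutation p = 0.0286 and an adjusted p = 0.0449. That adjustment ran over the 11 ratios with only the C5ar1 to Csf1r ratio exchanged. It does not cover the choice among markers, so these values are not counted as calls.

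**Figure D2:**
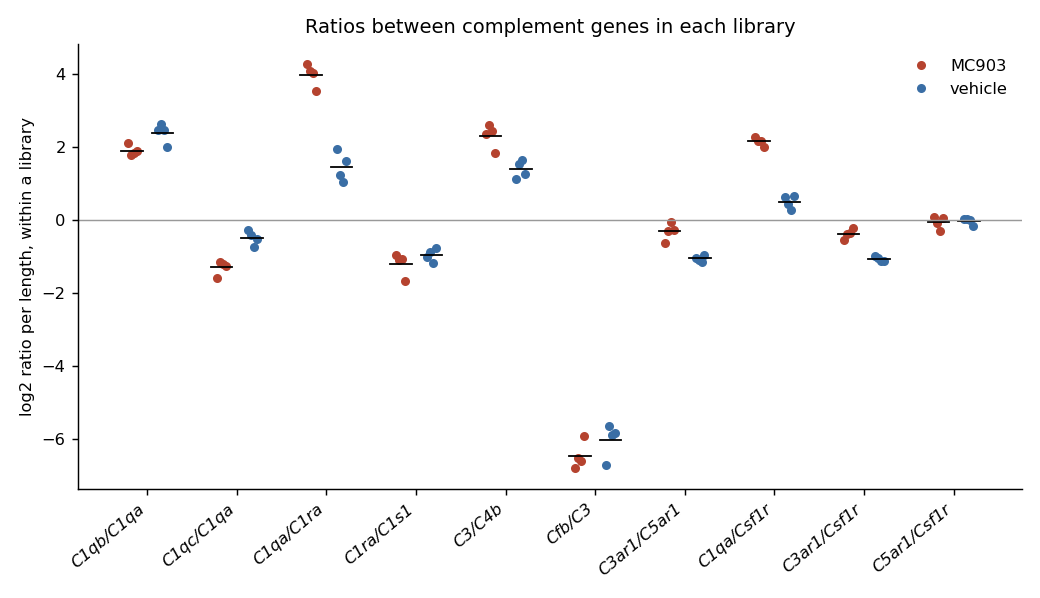
Log2 ratio per length of 10 gene pairs within each library (points), MC903 left and vehicle right of each pair, with group means as bars. C1qa per C1ra and C1qa per Csf1r are higher in all 4 MC903 libraries than in any vehicle library, whereas C5ar1 per Csf1r overlaps between the groups around a log2 ratio of 0.

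C1ra encodes C1r, the protease that C1q activates. The gene (ENSMUSG00000055172) spans 124512632 to 124523440 on the plus strand of chromosome 6. It measured 20.6, 19.0, 18.6 and 20.6 CPM in the MC903 libraries, against 15.2, 23.4, 21.5 and 18.5 CPM in the vehicle libraries. All MC903 values lay inside the vehicle range. Its log2 fold change was 0.0064 ± 0.15 (adjusted p = 0.976), with a 95% interval of -0.31 to 0.33. Without vehicle replicate 2 the log2 fold change of C1ra was 0.091. The C1qa to C1ra ratio per length was 11.6 to 19.3 in MC903 libraries and 2.05 to 3.84 in vehicle libraries, a log2 difference of 2.53 (exact permutation p = 0.0286, adjusted p = 0.0524). C1rb, a near copy of C1ra, had 2 counts over all 8 libraries, and how reads shared between the copies were counted was not given in the sources used here, so the C1ra level is uncertain. The C1ra to C1s1 ratio overlapped between the groups (log2 difference -0.25, exact permutation p = 0.286, adjusted p = 0.349).

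C3 encodes the central component that both pathways cleave. The gene (ENSMUSG00000024164) spans 57203970 to 57228136 on the minus strand of chromosome 17. It measured 361.2, 281.2, 318.9 and 335.2 CPM in the MC903 libraries, against 160.2, 280.9, 280.5 and 157.8 CPM in the vehicle libraries. The groups did not overlap, but the lowest MC903 library and the highest vehicle library met, and the vehicle libraries fell into a high and a low pair. C3 had a log2 fold change of 0.56 ± 0.22 (95% interval 0.085 to 1.04) and missed the threshold (adjusted p = 0.0576). C3 was called higher with DESeq2 (adjusted p = 0.0246), with limma-voom (0.0408), without vehicle replicate 2 (log2 fold change 0.69, adjusted p = 0.0319) and without vehicle replicate 3 (0.0362); its adjusted p ran from 0.0246 to 0.149 over 17 alternatives.

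C4b encodes C4, the target of C1s in the classical pathway. The gene (ENSMUSG00000073418) spans 34728380 to 34743882 on the minus strand of chromosome 17. It measured 77.3, 51.3, 64.7 and 103.7 CPM in the MC903 libraries, against 80.7, 107.5, 99.6 and 72.9 CPM in the vehicle libraries, and the groups overlapped. C4b had a log2 fold change of -0.28 ± 0.21 (95% interval -0.73 to 0.17, adjusted p = 0.296), and -0.19 without vehicle replicate 2. MC903 replicate 4 was the highest of all but 1 library, and without it the log2 fold change was -0.48 (adjusted p = 0.0539). The C3 to C4b ratio per length was 5.17, 6.06, 5.46 and 3.58 in the MC903 libraries and 2.20, 2.89, 3.12 and 2.40 in the vehicle libraries (log2 difference 0.92, exact permutation p = 0.0286, adjusted p = 0.0524). C4a, a close relative of C4b, had 55 counts over all libraries against 9696 for C4b, and the sources used here do not say how reads that match both were counted.

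Cfb encodes factor B, the protease of the alternative C3 convertase. The gene (ENSMUSG00000090231) spans 34856374 to 34862518 on the minus strand of chromosome 17. Its counts were low, from 14 to 45 per library, which gave 1.75, 1.67, 1.79 and 3.0 CPM in the MC903 libraries and 0.825, 3.07, 2.57 and 1.5 CPM in the vehicle libraries. The groups overlapped fully, with a log2 fold change of 0.051 ± 0.38 (95% interval -0.78 to 0.88, adjusted p = 0.926), and 0.31 without vehicle replicate 2. As a ratio of MC903 to vehicle the interval covers 0.583 to 1.84, and a difference inside it was not detectable with this spread between mice and this depth. Cfb per C3 also overlapped between the groups (log2 difference -0.44, exact permutation p = 0.229, adjusted p = 0.314).

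The Cfb level has a further limit that lies in the annotation. Of its 2825 exonic bases, 2246 (79.5%) are also exonic in Gm20547 on the same strand, and Gm20547 was listed at 0 counts in all 8 libraries. C2 shares 1817 of its 3872 exonic bases with Gm20547 and Zbtb12. Whether reads in shared bases were counted was not given in the sources used here; if they were left out, the Cfb counts rest on the remaining 579 bases. Per kilobase of those, Cfb was 3.55 ± 1.10 CPM in MC903 skin and 3.44 ± 1.76 CPM in vehicle skin (SD, n = 4 each), and over the full length it was 0.727 ± 0.225 RPKM in MC903 skin and 0.705 ± 0.360 RPKM in vehicle skin. No other member shared exonic bases with another gene in the deposited gene positions.

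On the RPKM scale (CPM per kilobase of gene length, TMM-adjusted), the order of the members' levels in MC903 skin was C1qb, C1qa, C3, C1qc, C5ar1, C3ar1, C4b, C1ra and Cfb. C1qb stood at 437 ± 130 RPKM in MC903 skin and 103 ± 20.6 RPKM in vehicle skin (SD, n = 4 each), first in both groups and above the next gene in every library. C1qa had rank 2 in MC903 skin at 115 ± 23.6 RPKM and rank 3 in vehicle skin at 19.5 ± 2.37 RPKM. C3 stood at 63.0 ± 6.52 RPKM in MC903 skin, below C1qa, and at 42.7 ± 13.7 RPKM in vehicle skin, above C1qa, with no overlap of the 2 genes within either group. Only C5ar1 and C3ar1 had overlapping neighbours in MC903 skin. In vehicle skin C1qa, C4b, C1qc and C5ar1 ran from 19.5 to 13.6 RPKM with each neighbour overlapping the next, and C1ra overlapped C3ar1. C3ar1 had rank 6 in MC903 skin at 19.8 ± 0.816 RPKM and rank 8 in vehicle skin at 6.58 ± 0.620 RPKM.

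**Figure D3:**
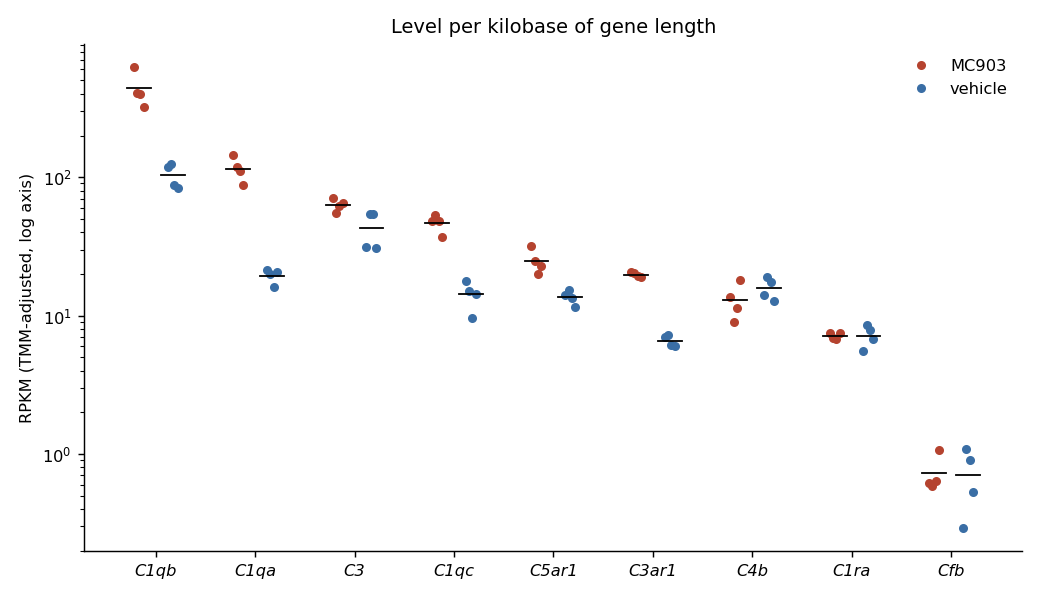
Level of the 9 genes per kilobase of gene length (RPKM, TMM-adjusted, log axis), ordered by the MC903 mean, with 1 point per library, MC903 left and vehicle right, and the group mean as a bar. C1qb is the highest in both groups, and C1qa lies above C3 in MC903 skin but below it in vehicle skin. Cfb is drawn over its full length, shared bases included.

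Promoter sequence was available from RefSeq for 6 of the 9 members (build GRCm38.p6); C1qa, C4b and Cfb had no entry. The 250 bases before the RefSeq start are shown for a C1q chain and a receptor that were higher and for C3, which was not called, 5′ to 3′ on the gene's strand, at chr4:136886201-136886450 (minus), chr6:122856158-122856407 (minus) and chr17:57228137-57228386 (minus). Capitals mark matches to the motifs searched.
C1qb: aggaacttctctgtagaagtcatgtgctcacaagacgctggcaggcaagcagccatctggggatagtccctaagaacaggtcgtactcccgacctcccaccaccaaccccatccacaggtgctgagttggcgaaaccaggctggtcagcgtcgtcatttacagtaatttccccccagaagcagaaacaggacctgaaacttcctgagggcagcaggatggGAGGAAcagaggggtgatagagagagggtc
C3ar1: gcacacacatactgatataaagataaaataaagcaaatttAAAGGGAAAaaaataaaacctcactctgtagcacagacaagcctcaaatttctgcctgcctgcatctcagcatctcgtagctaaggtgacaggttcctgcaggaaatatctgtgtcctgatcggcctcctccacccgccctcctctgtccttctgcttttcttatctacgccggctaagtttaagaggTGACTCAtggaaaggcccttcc
C3: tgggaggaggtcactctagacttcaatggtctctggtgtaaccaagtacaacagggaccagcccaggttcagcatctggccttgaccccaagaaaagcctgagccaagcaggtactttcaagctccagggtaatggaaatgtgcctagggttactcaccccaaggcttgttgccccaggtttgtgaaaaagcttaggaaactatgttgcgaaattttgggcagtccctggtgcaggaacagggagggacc

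The motifs were TTCNNNGAA (STAT type), TTTCNNTTT (interferon regulatory factor type), GGGANTTCC (NF-kB type), GAGGAA (ETS type), TTGCNNCAA (C/EBP type) and TGANTCA (AP-1 type), read on both strands over windows of 250 bases before to 50 after the start. The capitals in C1qb are a GAGGAA match at -30 to -25, a motif that 28.3% of all 32851 windows held. Those in C3ar1 are an interferon regulatory factor type match on the opposite strand at -210 to -202 and an AP-1 type match at -22 to -16, held by 10.6% and 7.81% of windows. C3 and C5ar1 had no match to any of the 6 motifs, C1qc had a GAGGAA match on the opposite strand at -193 to -188, and C1ra had a STAT type match at 33 to 41 and a GAGGAA match on the opposite strand at 45 to 50, both after its start. No member window held the NF-kB or C/EBP type, present in 1.68% and 2.08% of windows. A match is a description of the letters and not a bound site.

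Among 46 other complement genes, 29 had enough counts to be tested, and 7 were called higher and 8 lower. With 21.3% and 20.2% of all genes tested called in those directions, these counts are near the background. Their median log2 fold change was -0.16. By role, 4 of the 7 called higher were receptors, and of the 8 called lower 3 were terminal components, 3 membrane regulators and 1 a fluid regulator, a description with no test. In the classical and lectin group, C1s1, the protease partner of C1r, measured 52.7 ± 14.9 CPM in MC903 skin and 43.5 ± 10.2 CPM in vehicle skin (SD, n = 4 each) and was not called (log2 fold change 0.28 ± 0.21, adjusted p = 0.309). Of its 3129 exonic bases, 576 lie opposite the antisense gene Gm16567, and without strand the reads of such a pair cannot be told apart. C2, the protease that joins C4, was also not called (-0.43 ± 0.18, adjusted p = 0.0742). It was lower without MC903 replicate 4 (adjusted p = 0.0200) and with upper quartile factors (0.0362). Of the 8 genes tested in this group, Fcna, a ficolin of macrophages, rose by 0.98 ± 0.28 (adjusted p = 0.0153) and the scavenger collectin Colec12 fell by 0.89 on the log2 scale (adjusted p = 0.00753).

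Properdin, encoded by Cfp, stabilises the alternative convertase and is made by myeloid cells. It measured 153, 86.2, 96.1 and 88.0 CPM in the MC903 libraries, against 32.9, 49.9, 27.7 and 21.1 CPM in the vehicle libraries. The groups did not overlap, and Cfp rose by 1.69 ± 0.27 on the log2 scale (adjusted p = 0.000494). Cfd encodes factor D, the fat cell protease that activates factor B. It measured 207, 83.5, 133 and 502 CPM in MC903 libraries and 318, 1250, 287 and 429 CPM in vehicle libraries, with a log2 fold change of -1.30 ± 0.58 that was not called (adjusted p = 0.0931). Vehicle replicate 2 was the highest for Cfd and also for the summed adipocyte markers, which ran from 476 to 1083 CPM in MC903 libraries and from 782 to 2217 CPM in vehicle libraries. The part of fat cells in the Cfd values was not tested. Cfd was called lower with library sizes alone (adjusted p = 0.0236), with no filter (0.0437) and without MC903 replicate 4 (log2 fold change -2.01, adjusted p = 0.0117), and without vehicle replicate 2 its log2 fold change was -0.58 (adjusted p = 0.369).

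Of the terminal components, which form the membrane attack complex, 5 of 7 were tested. Hc, which encodes C5, the source of the C5aR1 ligand, had 100 counts over the MC903 libraries and 29 over the vehicle libraries. It averaged 1.88 ± 0.825 CPM in MC903 skin and 0.462 ± 0.196 CPM in vehicle skin and was called higher (SD, n = 4 each; log2 fold change 2.01 ± 0.40, adjusted p = 0.00224). C7 fell to 6.88 ± 5.16 CPM in MC903 skin, against 16.1 ± 4.46 CPM in vehicle skin (-1.23 ± 0.39, adjusted p = 0.0256). MC903 replicate 4 held 14.6 CPM of C7, inside the vehicle range, and without that library the log2 fold change was -1.89. The C7 call was lost without MC903 replicate 1 (adjusted p = 0.0645), 2 (0.0685) or 3 (0.0764) and without vehicle replicate 2 (0.0649) or 3 (0.0555). C8g and C9 were also called lower (-0.74 and -1.31) at 1.35 and 0.583 CPM in MC903 skin and 2.27 and 1.48 CPM in vehicle skin. C9 lost its call under 6 of 16 alternatives and C8g under 2 of 17.

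Membrane regulators protect host cells from complement, and 3 of the 5 tested were lower, none higher. The share called lower over all genes tested was 20.2%. Cd59a, which blocks the membrane attack complex, measured 33.3, 38.0, 38.9 and 40.2 CPM in the MC903 libraries, against 92.5, 87.0, 92.7 and 97.3 CPM in the vehicle libraries. The groups lay far apart, with a log2 fold change of -1.30 ± 0.11 (adjusted p = 7.14e-06). Its near copy Cd59b had 187 counts over all libraries and was not called, and reads common to both leave the split between them uncertain. Cd55, which speeds the decay of convertases, fell to 26.1 ± 5.55 CPM in MC903 skin, against 41.0 ± 6.37 CPM in vehicle skin (-0.65 ± 0.17, adjusted p = 0.0101). Cd46 fell by 1.18 on the log2 scale (adjusted p = 0.00580) at a low level, 1.23 CPM in MC903 skin and 2.77 CPM in vehicle skin. It had 65 counts over the MC903 libraries and 176 over the vehicle libraries. Cr1l, the broadly expressed rodent regulator Crry, was at 66.1 ± 6.02 CPM in MC903 skin and 58.6 ± 8.57 CPM in vehicle skin and was not called (0.18 ± 0.13, adjusted p = 0.311).

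Fluid regulators were tested for 4 of 9 genes. Serping1, the inhibitor of C1r and C1s, measured 421 ± 96.6 CPM in MC903 skin and 583 ± 68.6 CPM in vehicle skin (-0.47 ± 0.19, adjusted p = 0.0703). Clu, clusterin, gave -0.50 ± 0.19 (adjusted p = 0.0572), and Vtn, vitronectin, was the 1 gene called in this group, lower by -0.92 ± 0.26 (adjusted p = 0.0142). Serping1 and Clu were called lower with DESeq2 (adjusted p = 0.0364 and 0.0350) and with upper quartile factors (0.0383 and 0.0308). Without MC903 replicate 1, Serping1 (adjusted p = 0.0497) and Clu (0.0411) were called lower. Serping1 was also called lower with limma-voom (0.0493) and without MC903 replicate 4 (0.0322), and Clu without vehicle replicate 4 (0.0365).

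Complement receptors other than C3ar1 and C5ar1 rose in 4 of the 5 genes tested, where 21.3% of all genes tested were called higher. Itgam and Itgb2, the chains of complement receptor 3, rose by 1.80 ± 0.17 (adjusted p = 1.59e-05) and 1.15 ± 0.21 (adjusted p = 0.00142). Itgax, the alpha chain of complement receptor 4, rose by 1.82 ± 0.26 (adjusted p = 0.000243). C5ar2, the second C5a receptor, measured 6.95, 5.17, 4.17 and 3.25 CPM in MC903 libraries and 2.0, 2.31, 2.11 and 2.12 CPM in vehicle libraries (log2 fold change 1.2 ± 0.24, adjusted p = 0.00252). Cd93 was 45.7 ± 3.26 CPM in MC903 skin and 39.3 ± 6.03 CPM in vehicle skin and was not called (0.22 ± 0.13, adjusted p = 0.207). Fcna, C5ar2, Cd55 and Hc share 6.55%, 3.57%, 2.10% and 1.21% of their exonic bases with other genes. Mbl1 and Fcnb had 0 counts in every library, which allows up to 3 counts per library, or 0.178 to 0.244 CPM before TMM adjustment.

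**Figure D4:**
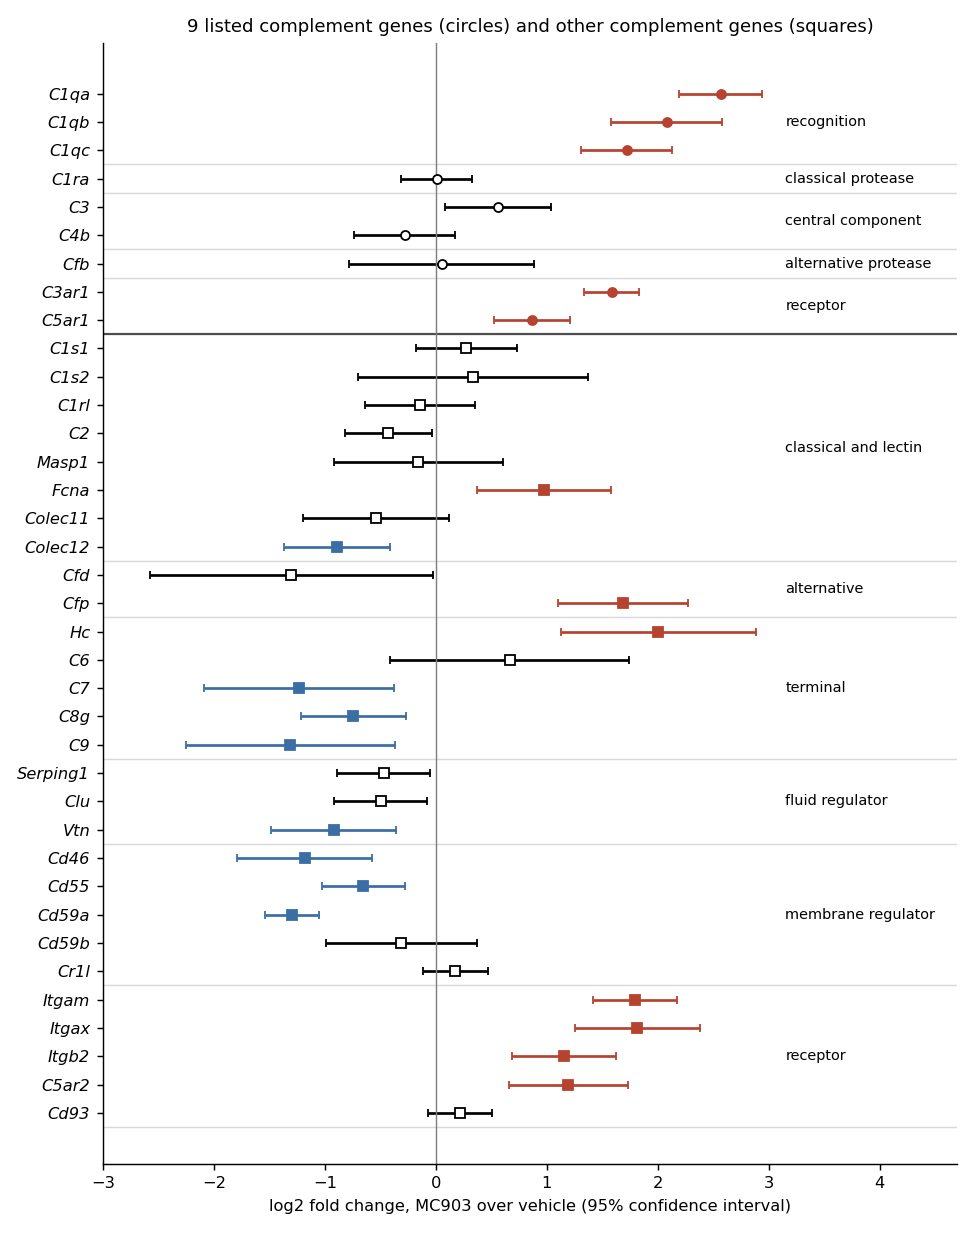
Log2 fold change of MC903 over vehicle with its 95% confidence interval for the 9 listed genes (circles) and 28 other complement genes (squares), by role; red was called higher, blue lower, and open symbols were not called. The C1q chains and 6 of the 7 receptors were called and lie to the right, and the membrane regulators Cd46, Cd55 and Cd59a lie to the left.

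MC903 replicate 4 was the highest MC903 library for C4b, Cfb, C1s1 and C7, and it also held the most fibroblast transcript of that group. It was the highest of that group for the adipocyte (1083 CPM), skeletal muscle (4670 CPM) and endothelial (162 CPM) sums too. The same held for the keratinocyte (13556 CPM) and dendritic and Langerhans (219 CPM) sums. For the macrophage and monocyte sum (1594 CPM) and the neutrophil marker sum (395 CPM), mostly S100a8 and S100a9, it was the lowest. Summed over 7 fibroblast markers, the MC903 libraries held 7738, 7770, 7305 and 10633 CPM and the vehicle libraries 10765, 10377, 10415 and 15084 CPM. Of these 7 markers, Dcn and Pdgfrb were lower and none was higher. The part of any of these cell types in the values was not tested. Among the remaining lists, mast cell markers were higher in 4 of 5 genes, dendritic and Langerhans markers in 2 of 7, endothelial in 1 of 4, keratinocyte in 3 of 6 and B cell in 1 of 2 tested. Skeletal muscle markers were lower in 2 of 5, adipocyte in 3 of 5, hepatocyte in 2 of 2 tested and salivary gland in 6 of 6 tested. Over all genes tested, 21.3% were called higher and 20.2% lower. The dendritic and Langerhans, endothelial and fibroblast counts are near those shares. The salivary gland transcript of the vehicle group lay almost wholly in vehicle replicate 2. Its Bpifa2 stood at 316984 CPM, against 152 to 213 CPM in the MC903 libraries and 119 to 356 CPM in other vehicle libraries. Without that library, 1 of 6 salivary gland, 1 of 2 hepatocyte, 1 of 5 adipocyte and 0 of 5 muscle markers were lower. Higher were 3 of 5 mast cell, 1 of 7 dendritic and Langerhans and 0 of 4 endothelial markers. Macrophage and monocyte markers were then higher in 8 of 10 and lower in 1. Of 5 neutrophil markers tested, 4 were higher and 1 lower. Calls lost through fewer libraries cannot be told apart from calls lost through the values of vehicle replicate 2. Its skeletal muscle sum, 8230 CPM, was not the highest, with 8322 CPM in vehicle replicate 1.

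The genes most like C1qa were found by Pearson's r between log2 CPM deviations from the own group mean over the 8 libraries, where the genes of a library share its depth, among 10754 genes with a mean log2 CPM of at least 3. Mif, Tmem104 and Tusc2 came first at r = 0.997, 0.989 and 0.987, while C1qb and C1qc stood at 0.797 and 0.768, in ranks 903 and 1101. For C3 the first were Ppt1, Dync1h1 and Adsl (0.989, 0.983 and 0.982), with C1ra at 0.867 in rank 132. For Cfb, which has few counts, they were Prpf31, Pja1 and Zfp954 (0.986, 0.981 and 0.977). These are the highest values of many, from 8 libraries, and describe only the ranking.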

How the data were processed

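Whole ear skin RNA of 8 mice was sequenced as 50-base single reads after removal of ribosomal RNA, per the labels' protocols, with no step that marks strand. Each deposited table held whole-number read counts for every Ensembl gene, with the authors' CPM and RPKM in further columns. The tools, per the submitters' processing notes, included featureCounts 1.4.5, Subread and STAR 2.0.4b, with mm10 as the build; the annotation release, the strand setting and the handling of multiply mapped or overlapping reads are not given in the sources used here. Those deposited CPM and RPKM values followed from the counts to within 2.33e-10 and 5.82e-11 and were not used further.

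Of 41388 identifiers, 40254 matched a symbol in the reference names. Genes with low counts were removed by filterByExpr, and the rest were compared between groups, with TMM scaling and no covariate, by the quasi-likelihood test of edgeR 4.0.16 (R 4.3.3), with Benjamini-Hochberg adjustment over all genes tested and a threshold of 0.05. Standard errors were the log2 fold change divided by the square root of F. Printed CPM and RPKM are TMM-adjusted. Ratios within a library added 0.5 counts to each gene and were compared by exact permutation with scipy 1.17.1. Totals of 12310466 to 16837221 counts set the precision; the floor covers counting error only, and the intervals of fold changes the spread between mice as well.

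No 2 libraries of a group were alike within sampling noise. The 9 genes, the lists of other complement genes and of markers, and the 11 ratios were chosen with earlier results of these data known. Of the other complement genes, the text names the 10 with the highest mean, 12 preset genes and, chosen after their values were seen, the further genes called. The values of some complement regulators, and 1 ratio, entered the counts and the adjustment but are not reported here. The planned protein comparison was left out because protein sequences were not used here. Alternatives were 3 other scalings, no filter and a stricter one (at least 1 CPM in at least 4 libraries), DESeq2 1.42.0, limma-voom (limma 3.58.1), the replicate number as a block, dropping 390 genes of mitochondria or ribosomal RNA, and omitting every library once.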

Additional observations from a re-analysis of the deposited data

Results flagged for a closer look

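In 5 of 50 groups of 4 libraries, counting the 9 genes and 16 named other complement genes in each group, 1 library lay far from the other 3; chance alone flags about 1 in 20 groups. MC903 replicate 4 was high for Cfb (3.0 CPM), C1s1 (75.1 CPM) and C7 (14.6 CPM). MC903 replicate 1 was high for Cfp (153 CPM). Vehicle replicate 2, the library with salivary gland transcripts, was high for Cfd (1250 CPM).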

How the results depend on the processing

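C1qa, C1qb, C1qc, C3ar1 and C5ar1 were called higher under all 17 alternatives, with log2 fold changes of 2.44 to 2.68, 1.86 to 2.20, 1.57 to 1.84, 1.51 to 1.63 and 0.73 to 0.96. The number of members higher was 5 or 6, the sixth being C3. The log2 fold change of C1ra, not called in any, was -0.052 with library sizes alone, -0.0045 with no filter and -0.066 with upper quartile factors, and ran from -0.10 to 0.091 as single libraries were left out. That of Cfb was -0.022 with upper quartile factors and ran from -0.22 to 0.31. With single libraries left out, C1rl ran from -0.23 to 0.061, turning sign without vehicle replicate 2, and Masp1 from -0.60 to 0.022, turning sign without MC903 replicate 2. The other complement genes called lower numbered 8 in the main test and 11 with upper quartile factors. As single libraries were left out they numbered 5 to 11, the 5 being without MC903 replicate 3. Genes outside the 8 were called lower under further alternatives too, among them Serping1 and Clu with DESeq2. The other complement genes called higher numbered 7 or 8. With the replicate number as a block, 5 members and 7 other complement genes were higher and 7 were lower, C8g losing its call (adjusted p = 0.0568); the numbers did not pair the libraries, since deviations of same-numbered libraries correlated at 0.057, -0.14, -0.12 and -0.20 and no MC903 library correlated best with its own number. The ratios gave 0 adjusted calls with 0.5 or 5 counts added. In both settings 6 had the smallest possible exact permutation p, 0.0286, and with 6 of 11 there no ratio could pass the adjustment. With a library left out, 4 against 3 cannot reach the threshold and only differences were computed. With another macrophage marker in place of Csf1r, chosen after seeing the data, the log2 difference turned sign for C1qa with Ly6c2 (-0.58), for C3ar1 with Mrc1 (-0.14), Fcgr1 (-0.94) and Ly6c2 (-1.54), and for C5ar1 with Mertk (1.55). Cfb had the fewest counts of the members, 14 to 45 per library.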
